A study of Mus musculus with 4 samples.

Results

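The 10 genes described here are Hspa1a, Hspa1b, Hspa8, Hsp90aa1 and Dnajb1, whose products are chaperones of the cytosol and nucleus, and Hspa5, Xbp1, Atf4, Ddit3 and Herpud1, which belong to the unfolded protein response of the endoplasmic reticulum (ER). They were chosen as a list of symbols and matched by Entrez identifier to the deposited tables, where all 10 were found among 16739 genes with a value in any library. RNA was sequenced from CD45+ CD11b+ F4/80+ tumor-associated macrophages (TAMs) sorted from subcutaneous B16-F10 melanomas, a melanoma cell line derived from C57BL/6 mice, 16 days after injection into C57BL/6 mice that were 6 to 8 weeks old when injected. There were 2 libraries from WT mice and 2 labelled Trim24-/-, written below as mutant-labelled (labelled Trim24-deficient in the plots), and all 4 come from tumor-bearing mice with no other treatment. In the study's mutant mice floxed Trim24 alleles were deleted by LysM-Cre, which is expressed from the lysozyme M locus in myeloid cells, and the controls were WT littermates whose Cre status is not given in the sources used here.

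Cells meet misfolded protein with separate programs for separate compartments. In the cytosol, heat shock factor 1 (Hsf1) is released when chaperones are occupied and drives the genes of the inducible Hsp70 proteins (Hspa1a, Hspa1b), their Hsp40 partner (Dnajb1) and Hsp90 (Hsp90aa1), whereas Hspa8 encodes the Hsp70 that is present without stress. In the ER, the chaperone BiP (Hspa5) holds the sensors Ern1 (IRE1), Eif2ak3 (PERK) and Atf6 inactive. Active IRE1 splices the Xbp1 message into one for a potent transcription factor, PERK favours translation of Atf4 and through it induces Ddit3 (CHOP), and Atf6 raises chaperones and degradation factors such as Herpud1. Macrophages secrete large amounts of protein, and tumors expose them to hypoxia and nutrient shortage, conditions known to engage the ER branch.

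The elements by which these programs are recognised were searched in proximal promoters, and the 4 that held a searched stress element are shown. The other members held none of them or had no promoter window to search. The sequences are from RefSeq (GRCm38.p6), each giving the 150 bases before the transcription start, 5′ to 3′ on the strand of the gene, with the matched element in capitals. Those of Hspa1a (chr17:34972157-34972306, minus strand) and Hspa1b (chr17:34959239-34959388, minus strand) hold a heat shock element. That of Hspa5 (chr2:34771940-34772089, plus strand) holds an ER stress element, and that of Herpud1 (chr8:94386279-94386428, plus strand) holds an ER stress element II.
Hspa1a: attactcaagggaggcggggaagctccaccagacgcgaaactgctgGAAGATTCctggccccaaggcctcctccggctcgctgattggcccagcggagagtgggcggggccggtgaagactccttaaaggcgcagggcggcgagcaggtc
Hspa1b: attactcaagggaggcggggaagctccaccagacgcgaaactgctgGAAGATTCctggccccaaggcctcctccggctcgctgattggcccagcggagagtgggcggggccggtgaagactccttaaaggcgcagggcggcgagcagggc
Hspa5: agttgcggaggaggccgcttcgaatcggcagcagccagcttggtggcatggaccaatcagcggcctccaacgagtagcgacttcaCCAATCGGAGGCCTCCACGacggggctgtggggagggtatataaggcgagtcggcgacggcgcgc
Herpud1: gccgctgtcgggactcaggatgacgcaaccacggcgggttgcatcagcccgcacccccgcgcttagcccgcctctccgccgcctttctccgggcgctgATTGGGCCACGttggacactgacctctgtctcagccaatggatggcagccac

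Elements were searched on both strands in the 250 bases before the start, in the 9 windows of the 8 members that matched the promoter table (Hspa1a, Hspa1b, Dnajb1, Hspa5, Xbp1, Atf4, Ddit3 and Herpud1). The heat shock element was searched as GAANNTTC, a match that reads the same on both strands, and it lay between positions -104 and -97 in both Hspa1a and Hspa1b. It is found in 6.69% of all 32851 windows of this length. The inverse arrangement TTCNNGAA, found in 7.17% of windows, was in none of the 9. The ER stress element was searched as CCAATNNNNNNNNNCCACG, found in 0.113% of windows, and lay between positions -65 and -47 of Hspa5. The ER stress element II, ATTGGNCCACG, found in 0.0304% of windows, lay between positions -52 and -42 of Herpud1. Both ER motifs include a CCAAT box, which 33.8% of windows hold on its own. The windows of Dnajb1, Xbp1, Atf4 and Ddit3 held none of the 4 stress motifs in these letters. Hspa1a and Hspa1b were identical at 247 of 250 positions (98.8%), so that the promoters of this pair can hardly be told apart by sequence. Their matches to the heat shock element are therefore not independent.

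The 4 libraries held 4476122 to 5172407 expected counts, so that 3 counts correspond to 0.606 to 0.639 CPM (edgeR's library-size-scaled counts, with TMM factors), a floor that covers counting error only. Values of a group are given in the order replicate 1, replicate 2. The sorted cells carried macrophage transcripts, since all 8 defining markers (Adgre1, Itgam, Ptprc, Csf1r, Cd68, Fcgr1, C1qa and Lyz2) were at 489 CPM or more in every library, their sum being 14666 and 12076 CPM in WT and 17509 and 15767 CPM in the mutant-labelled libraries. The targeted gene did not part the groups, although a count over the whole gene cannot separate deleted from retained exons: Trim24 was at 5.86 and 2.08 CPM in WT and at 3.41 and 0.411 CPM in the mutant-labelled libraries, which are therefore named by their label alone. Sex-linked transcripts followed the labels, although the methods of the study describe the mice of its tumor models as matched for age and sex. Xist was at 10.9 and 6.46 CPM in WT and at 437 and 256 CPM in the other group, whereas Ddx3y of the Y chromosome gave 73.7 and 102 CPM in WT and 0.426 and 0.411 CPM in the other group. Genotype and sex-linked expression therefore cannot be told apart in any comparison below. The labels do not say that replicates were separate mice, so p-values measure the spread between these libraries.

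**Figure D1:**
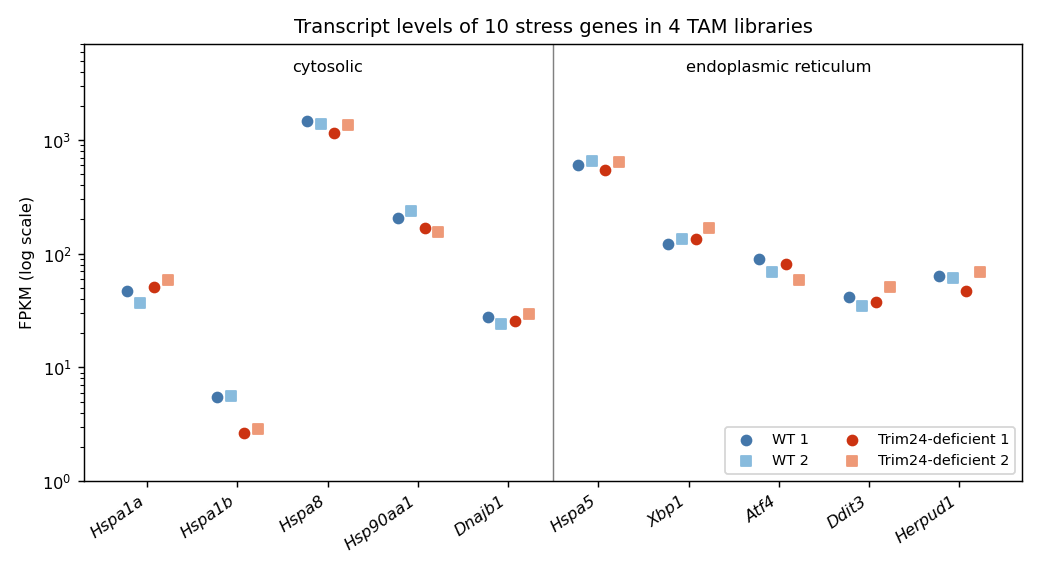
FPKM on a log axis for the 10 genes, cytosolic members on the left and ER members on the right, with 1 point per library (blue, WT; red, mutant-labelled; circles, replicate 1; squares, replicate 2). Hspa8 leads in every library at 1163 to 1467 FPKM, Hspa1b is lowest at 2.64 to 5.56 FPKM, and only Hspa1a, Hspa1b, Hsp90aa1 and Xbp1 have groups that do not overlap in TMM-scaled counts.

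Levels between genes were compared per length, as FPKM, the fragment count divided by transcript length and by library total, without TMM. Hspa8 had the highest level of the cytosolic members and Hspa5 that of the ER members. Hspa8 was at 1467 and 1394 FPKM in WT and at 1163 and 1347 FPKM in the mutant-labelled libraries, ranking 48 among the 11302 genes tested by mean FPKM. Hspa5, the major Hsp70 of the ER, was at 604 and 659 FPKM in WT and at 543 and 646 FPKM in the other group, ranking 116. In each library Hspa8 supplied 82.0% to 84.5% of the summed FPKM of the cytosolic members and Hspa5 64.4% to 68.8% of that of the ER members.

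Below these leaders the order was nearly the same in all libraries. Hsp90aa1 was next at 207 and 239 FPKM in WT and 168 and 156 FPKM in the mutant-labelled libraries, and Xbp1 followed at 121 and 134 FPKM in WT and 134 and 167 FPKM in the other group. In WT the 2 genes were well apart, but in mutant-labelled replicate 2 Xbp1 stood above Hsp90aa1. Atf4 (59.0 to 89.3 FPKM over the 4 libraries), Herpud1 (47.4 to 69.3), Hspa1a (36.6 to 59.1) and Ddit3 (34.7 to 51.2) followed. The range of each overlapped with that of the next in this order, whereas those of Atf4 and Ddit3, the ends of this run, did not. Within libraries Ddit3 ranked below Atf4, Herpud1 and Hspa1a every time, and the order of these genes above it changed between libraries. Dnajb1 was lower in every library, at 24.3 to 29.3 FPKM, and Hspa1b was lowest at 2.64 to 5.56 FPKM. The inducible Hsp70 message was thus carried mainly by Hspa1a.

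The comparison of the genotype labels asked whether either program differed between WT TAMs and mutant-labelled TAMs. None of the 10 genes passed both an FDR of 0.05 and a 1.5-fold change in the quasi-likelihood test of edgeR. These thresholds were passed by 0.372% of all tested genes (42 of 11302), so that 0 of 10 is near the background. All 10 were tested, with adjusted p between 0.305 and 0.961. At an unadjusted p under 0.05 there were 2 of the 10, Hspa1a and Hspa1b, beside 12.2% of all genes, and DESeq2 and limma called 0 members as well (1 and 2 of the 10 at an unadjusted p under 0.05). Groups did not overlap for 4 of the 10, beside 44.5% of all tested genes, 21.4% higher and 23.0% lower in the mutant-labelled libraries. With 1 library left out the count of all called genes moved strongly, to 66 without WT replicate 1, 25 without WT replicate 2, 405 without mutant-labelled replicate 1 and 652 without replicate 2 of that label, and the count of members stayed at 0 in each of these 4 fits.

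**Figure D2:**
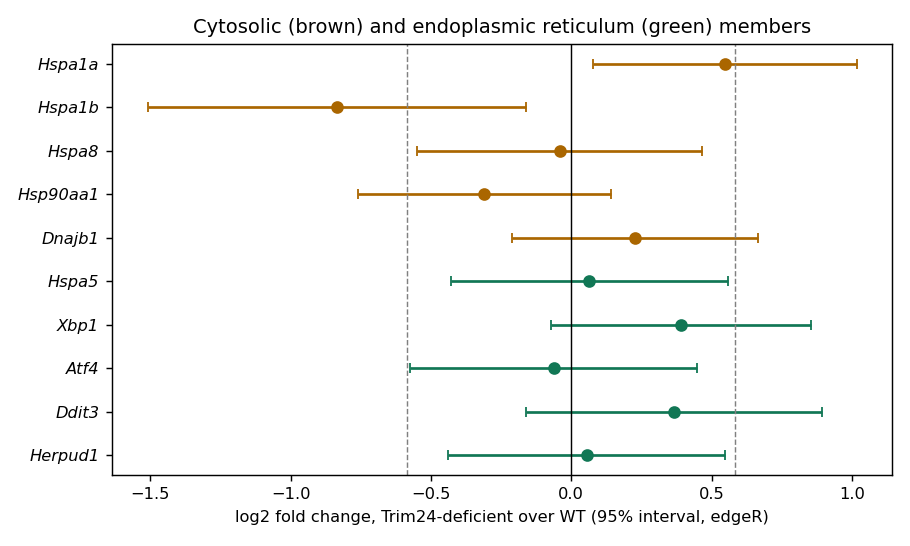
Log2 fold change of each gene, mutant-labelled libraries over WT, with its 95% interval from edgeR's quasi-likelihood fit (brown, cytosolic; green, ER; dashed lines, a fold change of 1.5 in either direction). The intervals of Hspa1a (0.08 to 1.02) and Hspa1b (-1.51 to -0.16) lie on opposite sides of 0, and the other 8 include 0.

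Among the cytosolic members, the inducible Hsp70 genes stood on opposite sides. Hspa1a was at 128 and 96.1 CPM in WT and at 151 and 177 CPM in the mutant-labelled libraries. Both libraries with the mutant label were above both WT libraries, and the log2 fold change was 0.55 (standard error, SE, 0.21, adjusted p = 0.340 by edgeR). Its near-identical neighbour Hspa1b was at 14.9 and 14.6 CPM in WT and at 7.88 and 8.63 CPM in the mutant-labelled libraries. Here both WT libraries were above both others, with close replicates in each group, and the log2 fold change was -0.84 (SE 0.30, adjusted p = 0.305 by edgeR). The 2 genes lie on the minus strand of chromosome 17 of GRCm38, Hspa1a (Entrez gene 193740) from 34969359 to 34972156 and Hspa1b (Entrez gene 15511) from 34956429 to 34959238, with 10120 bases between them, and each has 1 RefSeq transcript.

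Reads that fit both genes were divided between them by RSEM, and the part of that division in their opposite directions was not tested. Of the 50-base windows of the longest open reading frame of Hspa1a in GENCODE, 82.3% also occur in that of Hspa1b, and over the whole transcript 58.8% do. The read length is not given in the sources used here. Expected counts were 635.77, 461.15, 708.45 and 862.58 for Hspa1a and 74.08, 70.41, 36.79 and 42.3 for Hspa1b, in the order WT replicates 1 and 2 and the mutant-labelled libraries, replicates 1 and 2. As the counts are summed over the transcripts of a gene, fractional values show that reads were shared out between genes. Only Hspa1a, Hspa1b and Dnajb1 had them among the members, whereas the other 7 had whole counts in all 4 libraries (within 0.005).

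Hspa1b made up 10.4% (95% Wilson interval 8.38 to 12.9) and 13.2% (10.6 to 16.3) of the counts of the pair in WT, and 4.94% (3.62 to 6.77) and 4.67% (3.45 to 6.21) in the mutant-labelled libraries. These intervals cover counting error only and take the divided reads as observed. The share was lower in both libraries with the mutant label than in either WT library. Summed as 1 feature, which does not depend on the division within the pair, the counts came to 143 and 111 CPM in WT and to 159 and 186 CPM in the other group. The summed expected counts were fractional too, at 709.85 and 531.56 in WT and 745.24 and 904.88 in the other group. The sum can therefore still depend on reads divided with genes outside the pair. The log2 fold change of the sum was 0.44 (SE 0.21, 95% interval -0.02 to 0.90, adjusted p = 0.422 by edgeR), with groups that did not overlap. The sum thus pointed the way of Hspa1a, the more abundant of the pair.

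**Figure D3:**
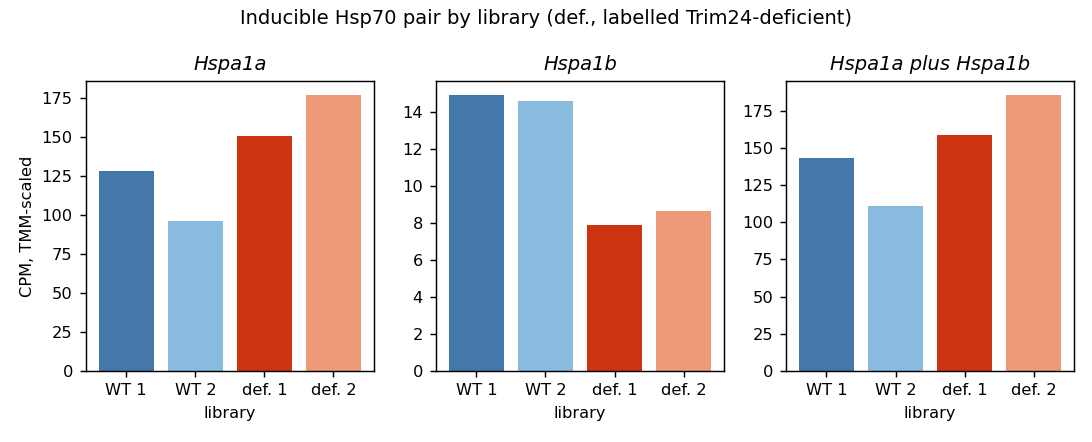
TMM-scaled CPM of Hspa1a, Hspa1b and their sum in each library (blue, WT; red, mutant-labelled), on separate axes that start at 0. Hspa1a and the sum are highest in the 2 mutant-labelled libraries (151 and 177 CPM, and 159 and 186 CPM), whereas Hspa1b is highest in WT (14.9 and 14.6 CPM).

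The other cytosolic chaperones lay closer to 0. Hsp90aa1 (Entrez gene 15519, chr12:110691036-110696395), the inducible Hsp90, was at 578 and 641 CPM in WT and at 507 and 477 CPM in the mutant-labelled libraries. All WT values were above all others, at a log2 fold change of -0.31 (SE 0.20, adjusted p = 0.563 by edgeR). Hspa8 (Entrez gene 15481, chr9:40801276-40805202), the constitutive Hsp70, was at 3014 and 2744 CPM in WT and at 2571 and 3024 CPM in the other group. The groups overlapped, and the fitted fold change of 0.972 had a 95% interval of 0.683 to 1.38. Dnajb1 (Entrez gene 81489, chr8:83608175-83612653), the J-domain protein that hands clients to Hsp70, was at 81.2 and 68.3 CPM in WT and at 80.1 and 94.9 CPM in the other group, again overlapping, with a fitted fold change of 1.17 (0.865 to 1.58). The fitted values of the known heat shock targets did not share a direction: Hspa1a and Dnajb1 had values above 1, and Hspa1b and Hsp90aa1 below. The intervals of Dnajb1 and Hsp90aa1 (0.590 to 1.10) included 1, and the value of Hspa1b may depend on the division of reads with Hspa1a.

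Among the ER members, Xbp1 alone had groups that did not overlap. Xbp1 (Entrez gene 22433, chr11:5520641-5525993) was at 269 and 283 CPM in WT and at 319 and 404 CPM in the mutant-labelled libraries. The WT libraries were close together and the others wide apart. In FPKM the nearest values of the groups almost met, at 133.64 in WT replicate 2 and 134.01 in mutant-labelled replicate 1. The log2 fold change of 0.39 (SE 0.21, adjusted p = 0.476 by edgeR) was 0.21 without mutant-labelled replicate 2. The tables group 2 RefSeq transcripts under this gene and give only their sum, so the splicing that marks active IRE1 could not be read. The mean transcript length that RSEM gives for Xbp1, which moves with the mixture of its transcripts, was 2262.96 and 2262.35 bases in WT. In the other group it was 2260.87 and 2262.02 bases, a difference of about 2 bases at most. The length gap between the 2 transcripts was not read, so this difference cannot be turned into a share of either.

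The PERK branch gave no common direction. Atf4 (Entrez gene 11911, chr15:80255184-80257545), which is controlled largely by translation so that its message need not follow its protein, was at 134 and 98.6 CPM in WT and at 129 and 94.3 CPM in the mutant-labelled libraries. The replicates of each group differed far more than the groups, and the fold change was 0.957 (95% interval 0.671 to 1.37). Its target Ddit3 (Entrez gene 13198, chr10:127290793-127296291), a factor known to promote cell death under lasting ER stress, was at 35.3 and 28.1 CPM in WT and at 34.5 and 47.3 CPM in the other group, a fold change of 1.29 (0.894 to 1.86). One library stood above the rest: mutant-labelled replicate 2 had the highest Ddit3 and the lowest Atf4, at a ratio of Ddit3 to Atf4 of 0.867 in FPKM, against 0.467, 0.50 and 0.469 in WT replicates 1 and 2 and mutant-labelled replicate 1. Without it, the Ddit3 log2 fold change was 0.12 in place of 0.37. The RefSeq span of Ddit3 overlaps those of Mbd6 and Mars1, that of Hspa5 overlaps Rabepk and that of Hspa8 holds 3 snoRNA genes, and the strand setting of the counting is not given in the sources used here.

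Hspa5 and Herpud1, the members closest to Atf6, had overlapping groups. Hspa5 (Entrez gene 14828, chr2:34772090-34776529) was at 1505 and 1571 CPM in WT and at 1458 and 1760 CPM in the mutant-labelled libraries. Herpud1 (Entrez gene 64209, chr8:94386429-94395371), which assembles the ER degradation complex, was at 115 and 108 CPM in WT and at 93.1 and 138 CPM in the other group. In both genes the libraries with the mutant label lay on either side of WT, with fold changes of 1.05 (95% interval 0.743 to 1.47) for Hspa5 and 1.04 (0.738 to 1.46) for Herpud1. The intervals of Hspa8, Hspa5, Atf4 and Herpud1 leave out a 1.5-fold difference in either direction, whereas those of Hspa1a, Hspa1b, Hsp90aa1, Dnajb1, Xbp1 and Ddit3 reach past it on 1 side.

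Set side by side, the cytosolic members summed to 1754 and 1700 FPKM in WT and to 1410 and 1594 FPKM in the mutant-labelled libraries, and the ER members to 920 and 958 FPKM in WT and to 843 and 992 FPKM in the other group. On this scale the cytosolic sums did not overlap between groups and the ER sums did. With TMM scaling, as used for the comparison of groups, the cytosolic sums overlapped too, at 3817 and 3563 CPM in WT and 3316 and 3782 CPM in the mutant-labelled libraries. The ratio of the cytosolic to the ER sum was 1.91 and 1.77 in WT and 1.67 and 1.61 in the mutant-labelled libraries. Without Hspa8 and Hspa5, which dominate the sums, it was 0.908 and 1.02 in WT and 0.825 and 0.714 in the other group. Both versions were thus higher in WT libraries. The ratio of Hspa8 to Hspa5 alone overlapped between groups, at 2.43 and 2.12 in WT and 2.14 and 2.09 in the other group. Most of the reduced cytosolic sum was Hsp90aa1, at 206.86 of 286.54 and 239.23 of 305.61 FPKM in WT. In the other group it was 168.3 of 247.46 and 156.12 of 247.43 FPKM. Xbp1 was the largest of the remaining ER members, so the reduced ratio largely repeats the values of these genes. The ratio is taken within a library and does not depend on the scaling of library totals. No test was made on it, since the members were chosen with results known and 2 libraries against 2 allow no exact two-sided permutation p below 0.333. By gene, the cytosolic members had a median log2 fold change of -0.04 (mean -0.08, 2 of 5 above 0) and the ER members 0.06 (mean 0.16, 4 of 5 above 0), beside a median of -0.01 over all tested genes and a median absolute value of 0.25.

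**Figure D4:**
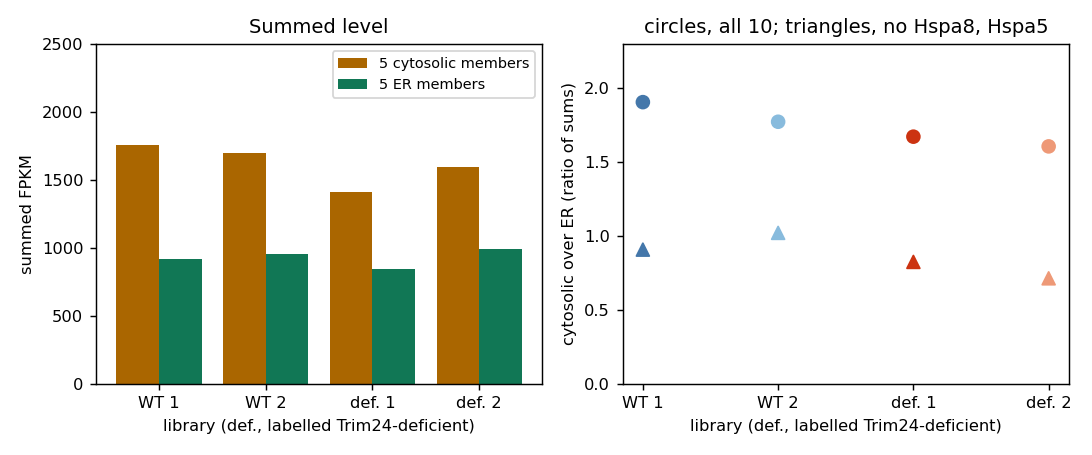
Left, summed FPKM of the 5 cytosolic and 5 ER members in each library, on an axis from 0. Right, the ratio of the sums with all 10 genes (circles) and without Hspa8 and Hspa5 (triangles); both WT libraries are above both mutant-labelled libraries, at 1.91 and 1.77 against 1.67 and 1.61 for all 10.

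Related genes of each compartment were read from lists of known function, and edgeR, DESeq2 and limma called none of them in either direction. At an unadjusted p under 0.05 in edgeR there were 1 of 26 further cytosolic chaperones, 0 of 7 mitochondrial chaperones, 1 of 6 sensors, 1 of 19 ER chaperones, 0 of 11 degradation factors, 5 of 19 genes of the integrated stress response and 4 of 10 immediate early genes, beside 12.2% of all genes. Of 28 further cytosolic chaperones and cochaperones 26 were tested, with 10 log2 fold changes above 0 and 16 below and a median of -0.11. Groups did not overlap for 12 of the 26, 2 higher and 10 lower in the mutant-labelled libraries (7.69% and 38.5%, beside 21.4% and 23.0% of all genes). The largest differences among well expressed members were in Bag1, a nucleotide exchange factor of Hsp70, at 45.0 and 40.6 CPM in WT and 34.9 and 26.9 CPM in the other group, and in Fkbp4, an Hsp90 cochaperone, at 153 and 160 CPM against 96.1 and 137 CPM. Their log2 fold changes were -0.47 and -0.42 with adjusted p of 0.419 and 0.454 from edgeR's quasi-likelihood test. Dnaja1, a J-domain partner of Hsp70, had -0.27 (adjusted p = 0.628 from the same test). Hspb1, a small heat shock protein chosen here after its values were seen, was the only gene of this list at an unadjusted p under 0.05, at 4.64 and 5.42 CPM in WT and 10.4 and 8.84 CPM in the other group. Hsf1 itself was at 44.2 and 42.1 CPM in WT and 37.5 and 43.2 CPM in the other group, overlapping.

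The chaperones of mitochondria, 7 of 7 tested, had a median log2 fold change of -0.05, between -0.28 for the protease Lonp1 and 0.18 for the Hsp90 homologue Trap1, with Hspe1, the chaperonin lid, at -0.22. Of the 6 sensors and activating proteases of the unfolded protein response all were tested, with a median of 0.00. Atf6 was at 101 and 87.9 CPM in WT and 105 and 86.9 CPM in the mutant-labelled libraries, Atf6b had a log2 fold change of 0.21 and the site-1 protease gene Mbtps1 one of -0.03. The kinases Ern1 and Eif2ak3 were low, at 6.46 to 11.5 and 7.67 to 14.1 CPM, and their groups overlapped. Mbtps2, the site-2 protease that frees Atf6 and was picked out after its values were seen, was at 26.9 and 31.9 CPM in WT and 21.7 and 16.0 CPM in the other group (log2 fold change -0.64, adjusted p = 0.349 by edgeR).

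Of 19 ER chaperones and folding enzymes 12 had a log2 fold change above 0 and 7 below, with a median of 0.06. Groups did not overlap for 8 of them, 5 higher and 3 lower (26.3% and 15.8%, beside 21.4% and 23.0% of all genes). Ero1a, the oxidase that recharges protein disulfide isomerase, was at 151 and 86.9 CPM in WT and 224 and 214 CPM in the mutant-labelled libraries (log2 fold change 0.88, SE 0.26, unadjusted p = 0.00741, adjusted p = 0.219 by edgeR). The disulfide isomerase Pdia3 had 0.37 (adjusted p = 0.552) and Hyou1, an Hsp110-type chaperone of the ER, -0.32 (adjusted p = 0.558) in the same test. Of 12 genes of ER-associated degradation 11 were tested, with a median of 0.15, and groups did not overlap for 7, 6 higher and 1 lower (54.5% and 9.09%). The derlin Derl2 was at 86.6 and 92.3 CPM in WT and 98.8 and 131 CPM in the other group, Edem2, a mannose-trimming factor, at 91.5 and 89.2 against 112 and 118 CPM, and the lectin Os9 at 138 and 150 against 171 and 190 CPM. Their adjusted p values were 0.495, 0.456 and 0.512 in edgeR's quasi-likelihood test.

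The integrated stress response, which runs through Atf4 from several stress kinases, was mixed. Of 22 genes 19 were tested, with a median log2 fold change of -0.01, 9 above 0 and 10 below. Groups did not overlap for 11 (57.9%, beside 44.5% of all genes). Of these 4 were higher and 7 lower (21.1% and 36.8%, beside 21.4% and 23.0% of all genes). By the naming rule Shmt2, a mitochondrial serine enzyme, was at 89.0 and 82.3 CPM in WT and 53.9 and 70.7 CPM in the other group, and Ppp1r15a and Atf3 had log2 fold changes of 0.39 and 0.37 with overlapping groups. An unadjusted p under 0.05 was reached by 5 of the 19 (26.3%, beside 12.2% of all genes), Shmt2 and 4 genes picked out after their values were seen. Of these Chac1 and Trib3, both known targets of Atf4 and Ddit3, were lower in the mutant-labelled libraries, Chac1 at 3.03 and 3.13 against 0.852 and 0.616 CPM, close to the floor of 3 counts, and Trib3 at 8.88 and 5.42 against 1.92 and 4.11 CPM. Sesn2 and Nupr1, also stress-induced, were higher, Sesn2 at 10.7 and 10.8 against 21.3 and 18.5 CPM and Nupr1 at 23.6 and 21.9 against 28.1 and 39.9 CPM. The smallest adjusted p of this list was 0.230, that of Sesn2 (edgeR).

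**Figure D5:**
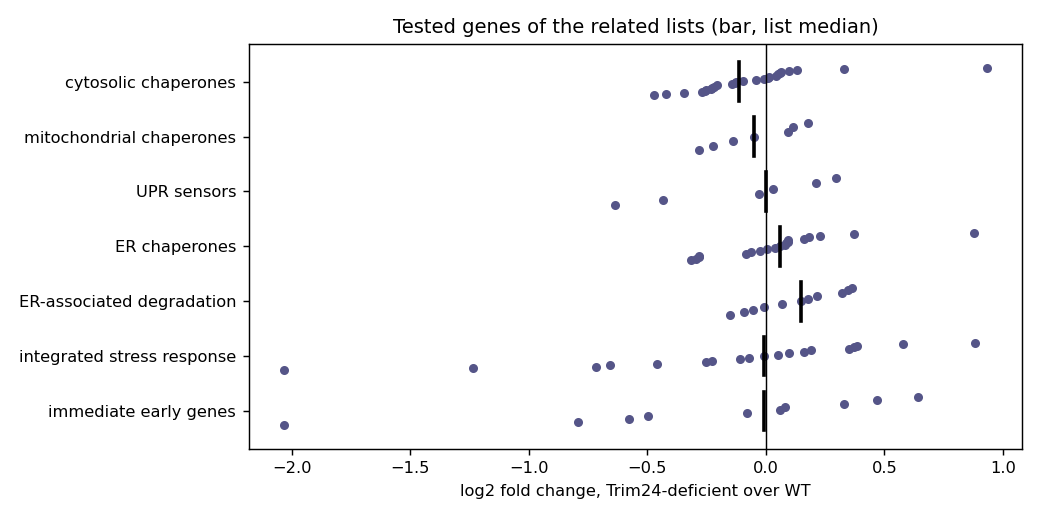
Log2 fold change, mutant-labelled libraries over WT, of each tested gene of 7 related lists, with a bar at the list median. List medians run from -0.11 for the cytosolic chaperones to 0.15 for ER-associated degradation, and no gene shown passed an FDR of 0.05.

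Immediate early genes, which like the inducible heat shock genes respond to tissue dissociation and sorting, were read beside the members. Their 10 genes summed to 2013 and 1243 CPM in WT and to 1507 and 1467 CPM in the mutant-labelled libraries, overlapping, with none called and 4 of 10 at an unadjusted p under 0.05. WT replicate 1 held the highest Fos, at 414 CPM, against 225 CPM in WT replicate 2 and 203 and 167 CPM in the other group. Egr1 and Dusp1 had log2 fold changes of -0.50 and -0.58. Of the 10 genes 5 were above 0 and 5 below. Groups did not overlap for 5 (50%, near the 44.5% of all genes). Of these 2 were higher (Nr4a1 at 0.64 and Junb at 0.33) and 3 lower (Fosb at -2.03, Fos at -0.79 and Egr1). These are 20% and 30% of the list, beside 21.4% and 23.0% of all genes. Nr4a1, Junb and Fosb were picked out after their values were seen. Hspa1a was also higher in WT replicate 1 than in WT replicate 2. Between the groups Nr4a1 and Junb lay in the direction of Hspa1a and Fos, Fosb and Egr1 in the opposite one, and the part of sample handling in the values of the members was not tested.

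All 8 macrophage markers had a log2 fold change above 0, with a median of 0.29. Groups did not overlap for 6, all higher in the mutant-labelled libraries (75%, beside 21.4% of all genes). At an unadjusted p under 0.05 in edgeR there were 2 of the 8 (25%, beside 12.2% of all genes), and none was called. Markers of other cells also moved with the groups in part. All 5 melanoma genes (Pmel, Mlana, Tyr, Dct and Tyrp1) were present, at a sum of 780 and 736 CPM in WT and 581 and 788 CPM in the mutant-labelled libraries, of which Tyr alone took 375 to 496 CPM. The sums overlapped, but Tyrp1, Mlana and Dct, 3 of the 5 (60%, beside 23.0% of all genes), were lower in both mutant-labelled libraries, with log2 fold changes of -0.65, -0.66 and -0.46, whereas Pmel (-0.18) and Tyr (0.06) overlapped. At an unadjusted p under 0.05 in edgeR there was 1 of the 5, Tyrp1, and none was called by edgeR, DESeq2 or limma. Neutrophil markers summed to 175 and 206 CPM in WT and 269 and 398 CPM in the other group. Ly6g was at 0 in both WT libraries and at 9.41 and 4.47 expected counts in the other group, too low to be tested. Of the 4 tested neutrophil genes edgeR called 0, and 3 had an unadjusted p under 0.05 (75%, beside 12.2% of all genes). Groups did not overlap for 3, all higher in the mutant-labelled libraries (75%, beside 21.4% of all genes). Cxcr2 went the other way, at a log2 fold change of -0.30 with overlapping groups. DESeq2 called Csf3r and S100a9, among 156 called of 11302 genes. T and NK cell genes summed to 36.0 to 115 CPM and B cell genes to 1.03 to 3.13. Dendritic cell sums overlapped, at 44.4 and 32.5 CPM in WT and 75.2 and 33.1 CPM in the other group. Of their 4 tested genes 1 did not overlap, Flt3, which was lower (25%, beside 23.0% of all genes). Stromal and endothelial sums did not overlap, at 21.8 and 22.9 CPM in WT and 45.8 and 33.1 CPM in the other group. Of their 2 tested genes Pecam1 was higher without overlap (50%, beside 21.4%) and Kdr overlapped. Mutant-labelled replicate 1 had the lowest melanoma sum and the lowest Hspa8, Hspa5, Herpud1 and Hspa1b in CPM. The remaining members, Hspa1a, Hsp90aa1, Dnajb1, Xbp1, Atf4 and Ddit3, were lowest in other libraries. These genes were compared with the melanoma sum after their values were seen. In bulk RNA fewer cells of a type and less RNA per cell cannot be told apart, and the part of these other cells in the values of the members was not tested.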

How the data were processed

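RNA of sorted TAMs was sequenced from 2 WT libraries and 2 labelled Trim24-deficient. Per the methods of the study, the authors aligned reads to mm10 by Bowtie and ran RSEM. They deposited its expected count per Entrez gene, a sum over RefSeq transcripts that is not normalized. Versions are not given in the sources used here. The authors also deposited FPKM, scaled to transcript length and library total. A gene missing from a library was taken as 0. Symbols and positions came from the RefSeq table of GRCm38.p6 by Entrez identifier (16698 of 16739 genes matched).

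Expected counts were rounded. edgeR 4.0.16 (R 4.3.3) kept 11302 genes (filterByExpr), scaled libraries by TMM and tested the group labels with glmQLFit and glmQLFTest on all 4 libraries without a block, Benjamini-Hochberg adjusted over all genes with calls made past an FDR of 0.05 and a 1.5-fold change, the thresholds in the methods of the study. Standard errors are the log2 fold change divided by the root of F, and 95% intervals use the total degrees of freedom of the fit. Replicates were distinct libraries, with chi-square per degree of freedom of 9.06 in WT and 20.1 in the other group. The members and lists were chosen with earlier results of these data known. Named genes of the pathway lists are all called genes and the 3 largest log2 fold changes of either sign at a mean log2 CPM of at least 5. Alternatives were other scalings, filters and tools (DESeq2 1.42.0, and limma 3.58.1 on log2 FPKM with a pseudocount of 1 or 0.1, for genes reaching 1 FPKM in 2 libraries), a correction for gene length, the replicate number as a block, the sum of Hspa1a and Hspa1b, and each library left out. The fits were tested on simulated data with known changes.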

Additional observations from a re-analysis of the deposited data

How the results depend on the processing

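No member was called under any alternative, and Hspa1a, Dnajb1, Xbp1 and Ddit3 stayed above 0 and Hspa1b and Hsp90aa1 below 0 in every fit across single genes. Library totals without TMM moved the median log2 fold change of all genes to -0.15, and limma to -0.13 with a pseudocount of 1 and -0.15 with 0.1. In these 3 settings Hspa5 stood at -0.0858, -0.0918 and -0.0920 and Herpud1 at -0.0950, -0.118 and -0.120, all above those medians. Herpud1 was also below 0 with upper-quartile scaling (-0.0036), with the length trend removed (-0.0136) and with that and the replicate block (-0.0330). Summing the pair gave Hspa1b the value 0.44. With 1 library left out Hspa8 ranged from -0.162 to 0.0760, Hspa5 from -0.0762 to 0.199, Atf4 from -0.30 to 0.19 and Herpud1 from -0.26 to 0.32. The difference between cytosolic and ER medians, -0.11, ranged from -0.28 to -0.15 with 1 library left out.

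The count of all called genes, 42, was 156 with DESeq2, 23 and 20 with limma at pseudocounts of 1 and 0.1, 634 with the replicate block, 441 with the block and the length trend removed, and between 25 and 652 with 1 library left out. The cause of these moves was not tested. The replicate numbers are shared by the labels only. Deviations of same-numbered libraries correlated at 0.166 across genes, which with 2 per group is no test of pairing, and the block changed no call of a member (Hspa1a 0.56, adjusted p = 0.110, and Hspa1b -0.84, adjusted p = 0.162, by edgeR's quasi-likelihood test). Depth limits Hspa1b most, at 37 to 74 counts.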
